A study of Mus musculus with 2 samples.

Results

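The leukocyte microRNA genes described here are Mir142, Mir150, Mir223, Mir155, Mir146 and Mir146b, measured by small RNA sequencing of whole mouse heart. They were chosen by symbol, for their known ties to white blood cells and inflammation, with earlier results of these data known. All 6 were matched by Ensembl identifier among the 2202 microRNA genes counted in each library. Mir142 and Mir146 are the names that the annotation used here gives to Mir142a and Mir146a. The tissue came from untreated male B6CASTF1/J mice, F1 hybrids of C57BL/6J and CAST/EiJ, at 2 months of age. The 2 libraries are numbered as biological replicates 1 and 2 and described as different males, although their labels share 1 donor identifier, so separate animals rest on those descriptions. There is 1 group and no treated or control arm, and every comparison below is between genes or between these 2 libraries.

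A microRNA is cut from a hairpin precursor, loaded into an Argonaute protein and guided to messenger RNAs mainly by its seed, the bases 2 to 8 from its 5′ end. Mir142 is expressed across blood cell lineages, Mir150 is known from mature B and T lymphocytes, and Mir223 from neutrophils and monocytes. Mir155 and Mir146 are induced by inflammatory signals through NF-kB. miR-155 is known to promote, and miR-146a to restrain, immune activation, the second through the signalling genes Traf6 and Irak1. A healthy heart holds resident macrophages, a few lymphocytes and whatever blood stays in its vessels, so whole-heart RNA can carry all of these microRNAs, and counts from whole tissue do not show which cells they came from.

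The mature sequences show the seeds of these genes and how the related genes Mir146 and Mir146b are told apart. All are given 5′ to 3′ from RefSeq on GRCm38.p6, with the seed in capitals. For Mir150 the 3p arm is printed, and miR-150-5p, the arm known as its main product, is named only. A count was made per hairpin gene and sums reads from its 5p and 3p arms.
miR-142a-5p: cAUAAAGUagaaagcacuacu
miR-142a-3p: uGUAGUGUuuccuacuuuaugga
miR-150-3p: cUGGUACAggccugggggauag
miR-223-5p: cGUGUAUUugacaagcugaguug
miR-223-3p: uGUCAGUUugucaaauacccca
miR-155-5p: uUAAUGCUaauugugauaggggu
miR-155-3p: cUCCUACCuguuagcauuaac
miR-146a-5p: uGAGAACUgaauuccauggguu
miR-146b-5p: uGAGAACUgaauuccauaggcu
Among these, miR-146a-5p and miR-146b-5p share the seed GAGAACU, and no other mature entry of the RefSeq table holds it. Each of the other seeds shown belongs to 1 mature sequence of that table.

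The miR-146 pair was compared base by base, because reads too short to reach a difference would be lost from both genes. The 2 sequences of 22 bases agree over the first 17 and differ at 2 positions, counted from 1 at the 5′ end. These are G18A and U21C, with the base of miR-146a-5p first, and they are in capitals here.
miR-146a-5p: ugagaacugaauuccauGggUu
miR-146b-5p: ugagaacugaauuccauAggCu
Their hairpins share a stretch of 21 bases, which begins 4 bases before the mature 5′ arm. A read that starts at the mature end therefore had to reach base 18 to have a single place. The hairpins of Mir142, Mir223 and Mir155 were compared with 1005 RefSeq hairpins, on either strand. The longest stretches shared with another hairpin were 13, 12 and 11 bases. Mir150 has no hairpin in the RefSeq table, so it was left out of this comparison. The value for Mir142 does not take in Mir142b, which spans the same bases on the opposite strand and is described below.

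The 6 genes lie at separate places in the genome. Mir142 is on chromosome 11 from 87756864 to 87756927 of mm10, on the plus strand, in an intron of the non-coding gene Mir142hg. Mir150 is on chromosome 7 from 45121757 to 45121821, on the plus strand, with no annotated gene over it. Mir223 is on chromosome X from 96242817 to 96242926, on the plus strand, in an exon of the non-coding gene F630028O10Rik. Mir155 is on chromosome 16 from 84714140 to 84714204, on the plus strand, in an exon of its host gene Mir155hg. Mir146 is on chromosome 11 from 43374397 to 43374461, on the minus strand, with no gene over it and the nearest protein-coding gene, Pttg1, 45789 bases away. Mir146b is on chromosome 19 from 46342762 to 46342870, on the plus strand, in an intron of Mfsd13a.

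Counts in microRNA genes, on their own strand, came to 3650782 in replicate 1 and 3810675 in replicate 2, out of 10362589 and 10483233 reads in all. Reads that mapped to several places made up 48.0% and 46.4% of all reads and are counted for no gene. All levels, shares and ranks below are thus among the counted reads. Genes whose copies share sequence can stand too low in them. Levels are given in CPM, the counts of a gene per 1000000 microRNA gene counts of the same library. A count of 0 allows up to 3 counts, or 0.822 and 0.787 CPM in replicates 1 and 2. Intervals are exact Clopper-Pearson 95% intervals and, like this floor, cover counting error only. The heart muscle genes Mir208a, Mir208b and Mir499 were all detected, and none of the cardiac and striated muscle list was at 0.

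The lymphoid, inflammation-induced, pan-leukocyte and myeloid genes were all counted in both hearts, at levels that spanned more than 3 orders of magnitude. Mir150 and Mir155 stood highest, at means of 0.374% and 0.330% of all microRNA counts, and Mir146, Mir142 and Mir223 followed. Mir146b was hardly counted at all. A level of 100 CPM was reached in both libraries by 5 of the 6, against 5.81% of all 2202 genes. The same 5 were detected, which means at least 2 CPM in each library, against 15.3% of all genes. These shares describe genes chosen for expression in blood cells and do not set them apart from other microRNA genes with a known site of expression.

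The lymphocyte gene Mir150 had 14856 counts in replicate 1 and 13033 in replicate 2. This was 4069 CPM (interval 4004 to 4135) and 3420 CPM (3362 to 3479), with a mean of 3745 CPM ± 459 (SD, n = 2). The value of replicate 1 was the higher, and the gene ranked 33 and 31 of 2202 in the 2 libraries. Known as a regulator of the transcription factor Myb in lymphocyte development, Mir150 was the most counted of the 6 genes in both hearts.

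The inflammation-induced genes divided into a pair of abundant ones and 1 near the limit of detection. Mir155 had 12747 and 11873 counts in replicates 1 and 2, or 3492 and 3116 CPM, with a mean of 3304 CPM ± 266 (SD, n = 2). Mir146, the gene of miR-146a, had 6072 and 5630 counts, or 1663 and 1477 CPM, with a mean of 1570 CPM ± 131 (SD, n = 2). These were the narrowest spreads among the 6 genes, with a coefficient of variation of 8.04% for Mir155 and 8.37% for Mir146. Within each library Mir155 exceeded Mir146 by nearly the same factor, 2.10 in replicate 1 and 2.11 in replicate 2.

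Mir146b, whose main product carries the same seed as miR-146a-5p, had 3 counts in replicate 1 and 10 in replicate 2. This was 0.822 CPM (interval 0.169 to 2.40) and 2.62 CPM (1.26 to 4.83). The intervals overlap, and the value of replicate 1 lies at the floor of 3 counts. Mir146 exceeded it 2024 times in replicate 1 (interval 692 to 9817) and 563 times in replicate 2 (306 to 1175), a mean log2 ratio of 9.59 ± 1.00 (SD, n = 2). Reads shared by both genes enter neither count, and their number is not known from these counts.

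The hairpins of the pair show where these counts can come from, with the annotated arms in capitals.
Mir146: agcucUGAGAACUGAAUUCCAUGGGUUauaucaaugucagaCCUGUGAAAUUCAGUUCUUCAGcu
Mir146b: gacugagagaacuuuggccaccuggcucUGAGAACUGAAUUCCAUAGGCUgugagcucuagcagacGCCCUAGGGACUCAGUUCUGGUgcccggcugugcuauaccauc
The 3′ arm of Mir146b shares at most 11 bases with any other hairpin of the RefSeq table, so a read from that arm has a single place among these hairpins. The files do not split the 3 and 10 counts by arm.

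Mir142, a gene of all blood lineages that is used to mark leukocytes, had 3984 counts in replicate 1 and 1631 in replicate 2. This was 1091 CPM (interval 1058 to 1126) and 428 CPM (407 to 449), with a mean of 760 CPM ± 469 (SD, n = 2). Replicate 1 was the higher of the 2 libraries, with a coefficient of variation of 61.7%, the widest among the 5 genes above 100 CPM. Relative to the lymphoid gene, Mir142 had 0.268 counts per count of Mir150 in replicate 1 and 0.125 in replicate 2.

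The count of Mir142 depends on strand. Mir142b, a gene annotated on the opposite strand from 87756841 to 87756955 of chromosome 11, spans the whole Mir142 hairpin.
Mir142: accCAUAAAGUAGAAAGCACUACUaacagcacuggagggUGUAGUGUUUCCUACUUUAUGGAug
miR-142b: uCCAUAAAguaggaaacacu
The arms of Mir142 are in capitals, as is the seed of miR-142b, and all 20 bases of miR-142b are the complement of bases of miR-142a-3p. On its own strand Mir142b had 0 counts in both libraries, and Mir142 had 0 counts on the strand opposite to it. All reads over this pair of genes were thus on the Mir142 strand. In the deposited column that ignores strand, a read over both genes is counted for neither, and Mir142 is at 0 there in both libraries. The other 5 genes had the same counts with and without strand, apart from 1 further read of Mir150 in replicate 1.

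Mir223, the gene of neutrophils and monocytes, had 1160 counts in replicate 1 and 862 in replicate 2. This was 318 CPM (interval 300 to 337) and 226 CPM (211 to 242), with a mean of 272 CPM ± 64.7 (SD, n = 2). The value of replicate 1 was again the higher. Among the 5 abundant genes, Mir223 was the lowest in both hearts, at ranks 97 and 111 of 2202.

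**Figure D1:**
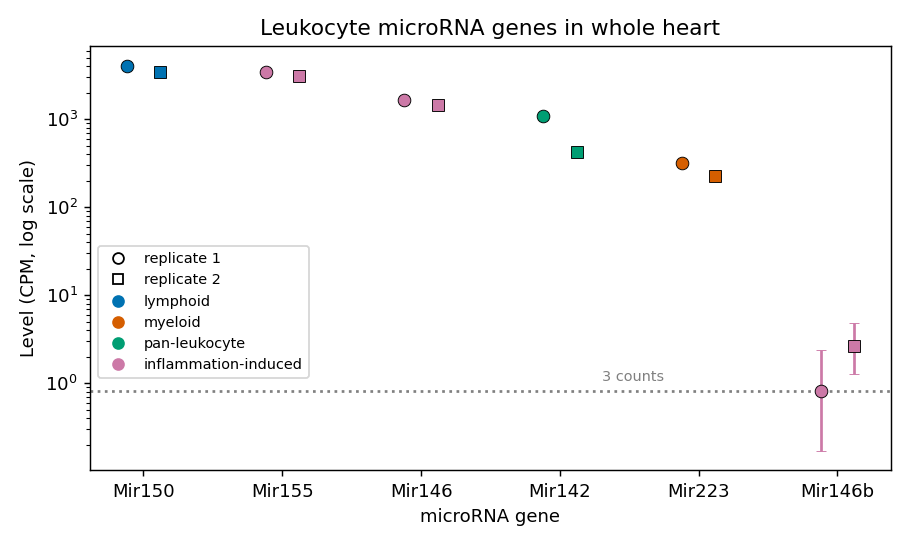
Levels of the 6 leukocyte microRNA genes in CPM on a log axis, with replicate 1 as circles and replicate 2 as squares, coloured by class. Bars are Clopper-Pearson 95% intervals and are smaller than most symbols, and the dotted line is the level of 3 counts in replicate 1. Mir150 and Mir155 lie between 3116 and 4069 CPM, the circle of Mir142 lies well above its square, and Mir146b lies at 0.822 and 2.62 CPM.

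The order of the genes was the same in both libraries, from Mir150 through Mir155, Mir146, Mir142 and Mir223 to Mir146b. Neighbours in this order were set against their spread over the libraries. The ranges of Mir150 and Mir155 overlapped, as the lower value of Mir150, 3420 CPM, was below the higher value of Mir155, 3492 CPM. Within each library Mir150 was the higher, with 1.17 and 1.10 times the level of Mir155 in replicates 1 and 2. Each of the 4 other neighbouring pairs had ranges that did not overlap. The closest of these were Mir142 and Mir223, with 428 CPM as the lower value of Mir142 and 318 CPM as the higher value of Mir223. The mature sequences printed above have 21 to 23 bases, and the order was also the same when CPM was divided by the annotated hairpin length of 64 to 110 bases. How well each sequence is recovered in library preparation was not measured, so these are orders of counts.

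**Figure D2:**
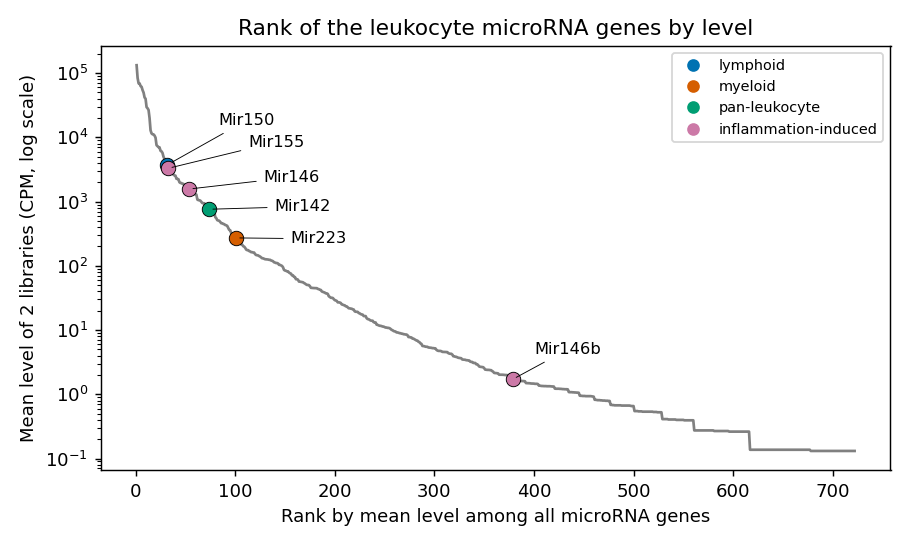
Mean level of the 2 libraries in CPM (log axis) against rank for all microRNA genes with at least 1 count (grey line), with the 6 leukocyte genes marked and coloured by class. Mir150 and Mir155 are at ranks 32 and 33, Mir146 at 54, Mir142 at 74, Mir223 at 101 and Mir146b at 379.

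The balance of lymphoid, myeloid and inflammation-induced genes was compared as shares of the counts of all 6. The share of the 6 genes in all microRNA counts was 0.965% ± 0.139 (SD, n = 2), with 1.06% in replicate 1 (interval 1.05 to 1.07) and 0.867% in replicate 2 (0.858 to 0.876). In whole tissue, fewer cells of a type and less RNA per cell cannot be told apart, so these shares are not shares of cells. The inflammation-induced class of Mir155, Mir146 and Mir146b held 48.5% of the counts of the 6 genes in replicate 1 (interval 48.0 to 49.0) and 53.0% in replicate 2 (52.5 to 53.5). The lymphoid gene Mir150 held 38.3% (37.8 to 38.8) and 39.4% (38.9 to 40.0). The pan-leukocyte gene Mir142 held 10.3% (9.96 to 10.6) and 4.94% (4.71 to 5.18). The myeloid gene Mir223 held 2.99% (2.82 to 3.16) and 2.61% (2.44 to 2.79).

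These shares followed the same order in both hearts, and the class with the widest relative difference between the libraries was that of Mir142. Nearly all of the inflammation-induced share came from Mir155 and Mir146, since Mir146b held 0.00773% of the counts of the 6 genes in replicate 1 and 0.0303% in replicate 2.

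**Figure D3:**
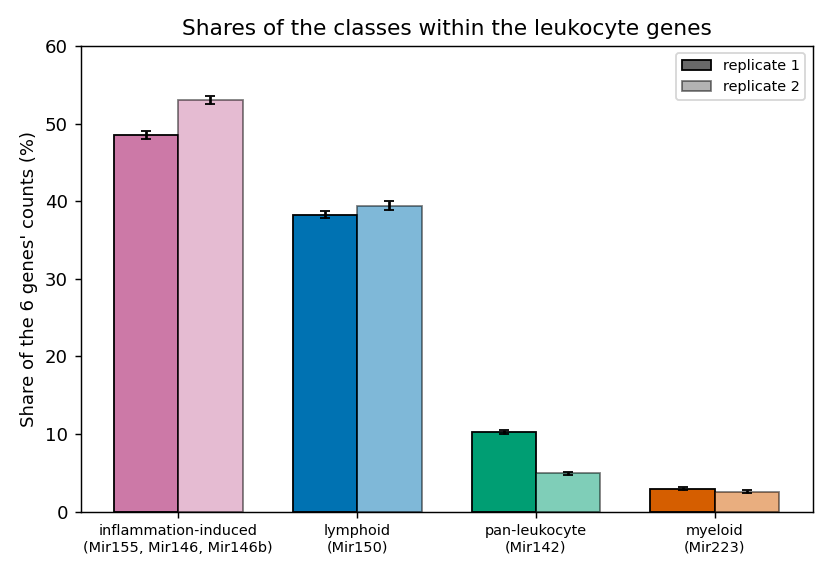
Share of the counts of the 6 leukocyte genes held by each class, in percent, with replicate 1 as solid and replicate 2 as pale bars and Clopper-Pearson 95% intervals as error bars. The inflammation-induced and lymphoid classes hold the most in both libraries, and the Mir142 bar is 10.3% in replicate 1 and 4.94% in replicate 2.

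The lymphoid gene exceeded the myeloid gene in both libraries. Mir150 had 12.8 counts per count of Mir223 in replicate 1 (interval 12.1 to 13.6) and 15.1 in replicate 2 (14.1 to 16.2), a mean log2 ratio of 3.80 ± 0.17 (SD, n = 2). The inflammation-induced gene Mir155 had 0.858 counts per count of Mir150 in replicate 1 (interval 0.838 to 0.879) and 0.911 in replicate 2 (0.889 to 0.934), a mean log2 ratio of -0.18 ± 0.06 (SD, n = 2). Mir142 had 3.43 and 1.89 counts per count of Mir223 in replicates 1 and 2. With 2 libraries, an exact two-sided sign-flip permutation test of such a ratio cannot give a p below 0.5, so none was run.

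Differences between the libraries were read from log2 ratios of replicate 1 over replicate 2, scaled by the TMM library sizes of edgeR. Each gene was tested with an exact two-sided binomial test, adjusted by Benjamini-Hochberg over all 320 genes past the low-count filter. The test compares 2 libraries with counting noise and not conditions. Of all genes tested, 64.4% passed it at an adjusted p under 0.05, and 33.8% passed it as higher in replicate 1. Mir146b did not pass the low-count filter, so 5 of the 6 leukocyte genes were tested, and all 5 were higher in replicate 1. Their median log2 ratio was 0.26, against -0.02 over all genes tested, and the median absolute ratio of all genes tested was 0.42.

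Mir142 differed most, with a log2 ratio of 1.36, or 2.57 times higher in replicate 1 (exact binomial test, Benjamini-Hochberg adjusted p = 2.4e-249). Only 24 of the 320 genes had a larger absolute ratio. Mir223 had a log2 ratio of 0.50, or a level 1.42 times as high in replicate 1 as in replicate 2 (exact binomial test, adjusted p = 2.18e-14). This lies near the middle of all genes tested, 45.0% of which had an absolute ratio at least as large.

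The lymphoid gene and the tested inflammation-induced genes differed less than most genes tested. Like those of Mir142 and Mir223, these comparisons with all genes were not matched on level. The ratios of genes with few counts carry more counting noise. Mir150 had a log2 ratio of 0.26, or a level 1.20 times as high in replicate 1 as in replicate 2 (exact binomial test, adjusted p = 7.94e-52). The log2 ratio was 0.18 for both Mir155 (exact binomial test, adjusted p = 2.07e-21) and Mir146 (adjusted p = 1.84e-11). Absolute ratios at least as large as that of Mir150 were found in 66.2% of the genes tested, and at least as large as those of Mir155 and Mir146 in 77.5% and 76.2%. Their small p-values come with 5630 to 14856 counts per gene and library. The spread between the libraries over all genes, a biological coefficient of variation of 0.370 in edgeR, corresponds to an SD of 0.73 for the log2 ratio of 2 libraries. By that measure the ratios of Mir150, Mir155, Mir146 and Mir223 were within 1 SD, and that of Mir142 was beyond it.

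**Figure D4:**
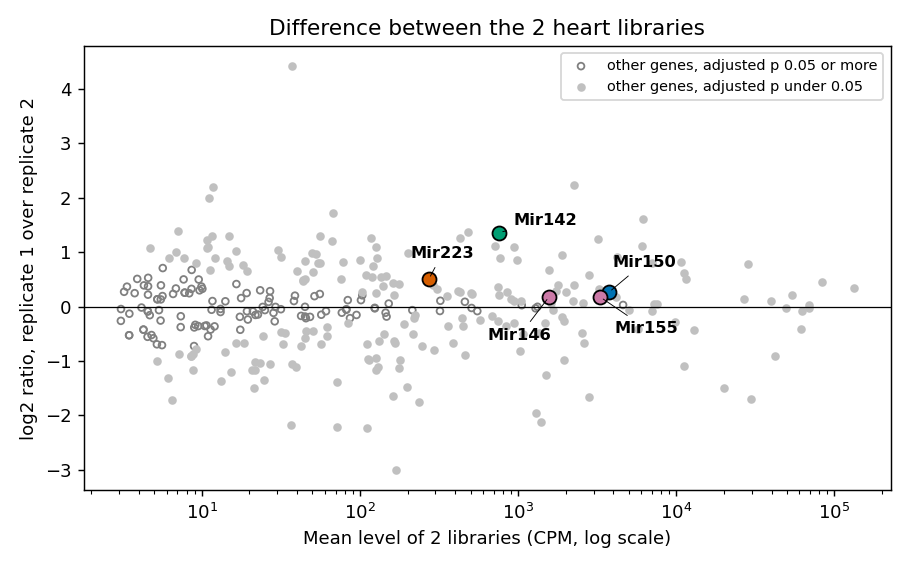
Log2 ratio of replicate 1 over replicate 2 against the mean level in CPM (log axis) for the 320 microRNA genes tested, with the 5 tested leukocyte genes coloured by class. Mir142 lies at 1.36, Mir223 at 0.50, and Mir150, Mir155 and Mir146 at 0.26, 0.18 and 0.18.

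The summed level of the 6 genes was 10634 CPM in replicate 1 and 8670 CPM in replicate 2, a ratio of 1.23. Mir142 made up 33.8% of that difference and Mir150 33.1%. Without Mir142, the sum of the other 5 genes was 9543 and 8242 CPM, a ratio of 1.16.

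Other microRNA genes linked to leukocytes were higher in replicate 1 or in replicate 2, or did not pass the test. Of a list of 14, all were detected in both libraries and 13 were tested, of which 6 were higher in replicate 1, 3 were higher in replicate 2 and 4 did not pass. Over all 320 genes, 33.8% were higher in replicate 1 and 30.6% in replicate 2, and 64.4% passed in either direction, so the counts of this list are near the background. The median log2 ratio of the tested genes of this list was 0.20. The summed level of all 14 was higher in replicate 2, at 14904 and 19142 CPM in replicates 1 and 2, a ratio of 0.779. The 4 most counted were Mir125a, known from myeloid cells and from many other tissues, at 7101 and 15217 CPM in replicates 1 and 2, and Mir21a, induced in activated leukocytes and in fibroblasts, at 4504 and 1908 CPM. Mir342, known from lymphoid and myeloid cells, was at 1278 and 604 CPM, and Mir181b-2, known from lymphocyte development, at 969 and 451 CPM. Mir342, Mir21a and Mir181b-2 thus had log2 ratios of 1.10, 1.25 and 1.12, and Mir125a had -1.09 (exact binomial test, adjusted p under 0.05 for each). Mir181b-2 shares 26 bases with Mir181b-1, and reads within that stretch enter neither count.

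Low in both hearts were Mir511, a macrophage gene, with 28 and 23 counts, and Mir147, a gene induced in stimulated macrophages, with 9 and 13 counts. Lymphoid genes of the same list were also low, Mir182 with 12 and 34 counts and Mir181b-1 with 38 and 14. Low counts were thus not particular to the macrophage genes. Intervals for both libraries overlapped for Mir511 and for Mir147, but not for Mir182 or Mir181b-1.

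Markers of other cells were set beside the leukocyte genes, because the heart was taken whole. The erythroid list of 4 genes, known from red cells, had summed levels of 3279 and 2992 CPM in replicates 1 and 2, with all 4 detected and none at 0. All 4 passed the exact binomial test at an adjusted p under 0.05, as did 64.4% of all 320 genes tested. Within that list, Mir451a and Mir3107 were higher in replicate 1, and Mir486 and Mir144 in replicate 2. Mir486 and Mir3107 are not separate places, since the 3232 and 4827 counts of Mir486 lie on the strand opposite to Mir3107. Mir486, at 885 and 1267 CPM, is also known from muscle, so the list does not mark red cells alone. The 6 leukocyte genes had 3.24 counts per erythroid count in replicate 1 (interval 3.18 to 3.31) and 2.90 in replicate 2 (2.84 to 2.96), a mean log2 ratio of 1.62 ± 0.11 (SD, n = 2). The erythroid and the leukocyte sums were thus both higher in replicate 1, by 1.10 and 1.23 times, and the part of blood left in the tissue in the levels of the leukocyte genes was not tested.

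The lists of the heart's own cells held genes that differed in both directions. The cardiac and striated muscle list of 7 genes had summed levels of 4032 and 6942 CPM in replicates 1 and 2. Nearly all of this came from Mir208a and Mir499, since the Mir1a and Mir133a genes, which share sequence between their copies, were counted at 1.64 to 68.8 CPM. Reads that fit several copies are counted for no gene, so the cardiac sum can be too low and its place below the leukocyte sum is one of counted reads only. Of the 5 cardiac genes tested, 4 passed the exact binomial test at an adjusted p under 0.05, against 64.4% of all 320 genes tested. Mir208a and Mir208b were higher in replicate 2, with log2 ratios of -1.67 and -2.22. Mir1a-2 was higher in replicate 1, with a log2 ratio of 0.81. Mir499 passed as higher in replicate 1 with a log2 ratio of only 0.07, and 91.25% of the genes tested had an absolute ratio at least as large. The endothelial list of 2 genes, nearly all of it Mir126a, summed to 52212 and 70229 CPM, with Mir126b at 0 in replicate 1. The smooth muscle list of 2 genes summed to 54611 and 53284 CPM, with Mir145a at 5530 and 2953 CPM and Mir143 at 49081 and 50331 CPM. Their part in the levels of the leukocyte genes was not tested.

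**Figure D5:**
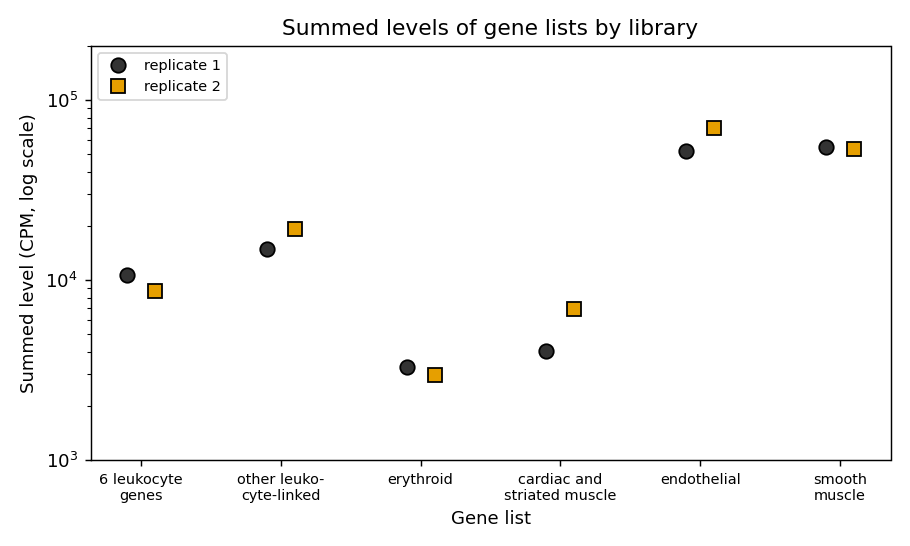
Summed level in CPM (log axis) of the 6 leukocyte genes and of 5 other gene lists, with replicate 1 as dark circles and replicate 2 as orange squares. The leukocyte genes lie at 10634 and 8670 CPM, above the erythroid list at 3279 and 2992 CPM. The other leukocyte-linked, the cardiac and the endothelial lists lie higher in replicate 2. The cardiac sum leaves out reads that fit several gene copies.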

How the data were processed

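Each library has 1 table of raw counts, which the authors deposited with a row for every microRNA gene. Per the text deposited with each file, reads were placed on mm10 with GENCODE M21. The aligner and its settings are not given in the sources used here. Tables hold counts of reads without strand, on the gene's strand and on the opposite strand, and the second of these was used here. The 4 rows without a gene (unmapped, in several places, in no gene, in several genes) hold 64.8% and 63.6% of the reads and entered neither totals nor tests. All 2202 identifiers matched M21, which gave symbols, positions and hosts. The RefSeq table gave 11 mature sequences of the 6 genes and hairpins of 5, all but Mir150.

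CPM, log2 ratios of CPM + 0.5, Clopper-Pearson intervals and the exact binomial test were computed with Python 3.11.15 and scipy 1.17.1. TMM sizes, filterByExpr and the dispersion (intercept only) came from edgeR 4.0.16 in R 4.3.3. The quasi-likelihood test of edgeR cannot be run between single libraries. DESeq2 1.42.0 size factors were an alternative. The effect of CAST/EiJ alleles on mapping was not tested. Genes named are the 6, the 4 most counted of the other leukocyte-linked list, leading markers and the nearest genes by level. Mir511, Mir147, Mir182, Mir181b-1 and single erythroid, cardiac and smooth muscle genes were added after their values were seen. The members and lists were chosen with earlier results of these data known.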

Additional observations from a re-analysis of the deposited data

How the results depend on the processing

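The shares, the 4 ratios and the calls of higher levels in replicate 1 were recomputed under the alternatives. All 5 tested genes passed the exact binomial test as higher in replicate 1 under DESeq2 size factors, plain library totals, no low-count filter and a filter of 10 CPM. Without a filter, TMM scaling lowered the log2 ratio of Mir155 to 0.10 and of Mir146 to 0.11, and Mir146b was tested at -1.29 (exact binomial test, adjusted p = 0.164). Without regard to strand, Mir142 had no count because Mir142b overlaps it, and the 4 remaining genes were higher in replicate 1. In that column the 6 genes held 1.15% of the counts, with Mir150 at 42.1%, the inflammation-induced genes at 54.9% and Mir142 at 0% of the 6, and the log2 ratio to the erythroid sum was 4.32, since 3 erythroid genes also had no count there. The total of that column is smaller, since abundant genes such as Mir126a, at 15 and 29 counts in replicates 1 and 2, are nearly lost from it. The higher share of the 6 genes is thus one of a smaller total. With Mir378a, the most counted gene, left out of the total, the 6 genes held 1.12%. Divided by hairpin length, the Mir223 share was 1.67%, the log2 ratio of Mir150 over Mir223 was 4.55 and that of the 6 genes over the erythroid sum was 1.97.

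Leaving out each replicate gave 0.867 to 1.06% for the share of the 6 genes, 38.3 to 39.4% for Mir150, 2.61 to 2.99% for Mir223, 4.94 to 10.3% for Mir142 and 48.5 to 53.0% for the inflammation-induced genes. The log2 ratios ranged from 3.68 to 3.92 for Mir150 over Mir223, from -0.22 to -0.13 for Mir155 over Mir150, from 8.89 to 10.30 for Mir146 over Mir146b and from 1.53 to 1.70 for the erythroid comparison. With 2 libraries these ranges are the library values themselves. Depth limits Mir146b alone among the 6 genes. No paired analysis was possible because there is 1 group.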

Other observations

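For each of the 6 genes, the 2 genes outside the 6 with the nearest levels in both libraries were listed, by Euclidean distance of log2(CPM + 0.5) over the 2 libraries. Mir142 lay nearest to Mir181b-2, at 969 and 451 CPM in replicates 1 and 2 (distance 0.19), and to Mir10b, at 1002 and 541 CPM (0.36). Mir223 lay nearest to Mirlet7f-1, at 327 and 251 CPM (0.15), and to Mir541, at 339 and 274 CPM (0.29). Mir155 lay nearest to Mir320, at 3564 and 2882 CPM (0.12), and to Mir15b, at 3349 and 2258 CPM (0.47). Mir150 lay nearest to Mir100, at 4411 and 3919 CPM (0.23), and to Mir320 (0.31). Mir146 lay nearest to Mir10a, at 1632 and 1572 CPM (0.09), and to Mir328, at 1621 and 1703 CPM (0.21). Mir146b lay nearest to Mir6980, with 3 and 9 counts, and to Gm27322, with 4 and 11 counts. A likeness over 2 libraries is one of counted level only, and reads that fit several genes are left out of it.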
